A study of Mus musculus with 6 samples.

Results

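The Golgi glycosyltransferases are the enzymes that build sugar chains on proteins and lipids as these pass through the Golgi apparatus. The genes described here were chosen by symbol, as the protein-coding genes whose names begin with Galnt, B4galt, B3galt, B4galnt, B3gat, Mgat, St3gal, St6gal or St8sia, and fall into 10 families, since St6gal also takes in the St6galnac genes. The rule used no measured value and found 69 of the 55098 genes in the deposited table, with 68 symbols, since St6galnac2 is listed under 2 gene identifiers. They were read from RNA-seq of the whole cerebellum, taken from male mice on postnatal day 60. The mice were Slc39a14 wild-type (WT, animals 1, 3 and 5) or Slc39a14 knock-out (KO, animals 2, 4 and 6), with 1 library per animal and 3 libraries per genotype. Slc39a14 encodes ZIP14, a carrier of manganese and other metals, and according to its title the series concerns cerebellar dysfunction in mice that model manganese-induced dystonia parkinsonism of childhood. The sources used here do not give the strain, how the allele was made or which cells lack the gene.

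Enzymes of these families move sugars from nucleotide-sugar donors to a growing chain. Galactosyl-, N-acetylgalactosaminyl-, glucuronyl- and most N-acetylglucosaminyltransferases bind the donor with the help of a divalent metal ion in the active site, which is commonly manganese, whereas the sialyltransferases and the Mgat5 enzymes work without it. In brain these families make the gangliosides of neuronal membranes, the polysialic acid of adhesion molecules, the HNK-1 epitope, the linker of proteoglycans and the bisected and branched N-glycans. Manganese acts on the enzymes themselves, whereas the measurements here are transcript levels.

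Total gene counts were 13805997 to 15788135 per library, and the 69 members took 0.290% to 0.311% of them. The libraries labelled KO had as many Slc39a14 counts as those labelled WT (WT 42.4 ± 1.33 CPM, KO 42.3 ± 3.18 CPM; SD over 3 libraries, where CPM is the TMM-normalized count scaled to a common library size), so the count over the gene did not check the genotype labels. WT 5 and KO 4 scored 20.1 and 12.7 on the leading principal component of 1000 genes, which held 30.5% of their variance, and the remaining libraries -11.1 to -3.94. Markers of cerebellar neurons were present in every library. The 7 granule cell markers summed to 5036 to 5377 CPM in WT and 4804 to 4950 CPM in KO. All 7 had a negative log2 fold change (KO minus WT, median -0.09). The 7 Purkinje cell markers summed to 5747 to 6489 CPM in WT and 6170 to 7345 CPM in KO, and all 7 were positive (median 0.10). In both lists 0 markers passed the test. Of the interferon response genes, a list chosen like the others with earlier results of these data known, 5 passed the test, all higher in KO. Of the choroid plexus and microglia markers 0 passed. All 10 and all 12 of these were positive, 9 and 6 of them at an edgeR unadjusted p under 0.05. The 10 choroid plexus markers summed to 162 to 776 CPM in WT and 632 to 1885 CPM in KO, the 12 microglia markers to 125 to 136 CPM and 156 to 206 CPM, and the 10 interferon response genes to 35.0 to 42.5 CPM and 121 to 164 CPM. Markers of hippocampus and neocortex, which should be absent, summed to 18.6 CPM in KO 4 and to 5.60 to 7.63 CPM in the other libraries. No marker was at 0, and their part in the results below was not tested. In a whole tissue, fewer cells of a type and less RNA per cell cannot be told apart.

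No member passed the test between the genotypes. A low-count filter left 61 of the 69 members among 17142 genes tested with edgeR's quasi-likelihood test, and 0 of the 61 had a Benjamini-Hochberg adjusted p under 0.05 (smallest adjusted p = 0.717), where 0.0467% of all tested genes passed. At an unadjusted p under 0.05 there were 2 members (3.28%), St6galnac2 and B4galt1, against 2.75% of all tested genes. DESeq2 called 0 members, with Galnt3 and St6galnac2 at an unadjusted p under 0.05, and limma-voom called 0, with B4galt1 and St6galnac2. Of the 65 members with a value in the authors' deposited table, 0 passed. The median log2 fold change (KO minus WT) of the 61 members was -0.02, with 24 positive and 37 negative, and that of all tested genes was -0.004, with 48.8% positive. With library totals alone as the scaling 31 members were positive and 30 negative, and without WT 3 there were 34 and 28. The groups did not overlap in 4 members (6.56%), 2 higher and 2 lower in KO, against 7.26% of all tested genes. These shares lay near the background.

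The precision was enough to bound the difference for most members. The 95% interval of the log2 fold change lay wholly within a 1.5-fold change in either direction for 45 of the 61 members (73.8%), against 60.5% of all tested genes, and the median half-width of the interval was 0.36. The estimate itself was under 0.1 in size for 36 members and over 0.25 for 5. These 5 were St6galnac2 (0.85), Galnt15 (0.74), St8sia6 (-0.47), B4galt1 (0.44) and B3galt5 (0.26). The intervals of the other 16 members reached past 1.5-fold, as in B4galnt3 (-1.12 to 0.96) and Galnt12 (-1.01 to 0.90), and all of these but B4galt7 had a low level, with a mean of at most 2.02 FPKM.

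**Figure D1:**
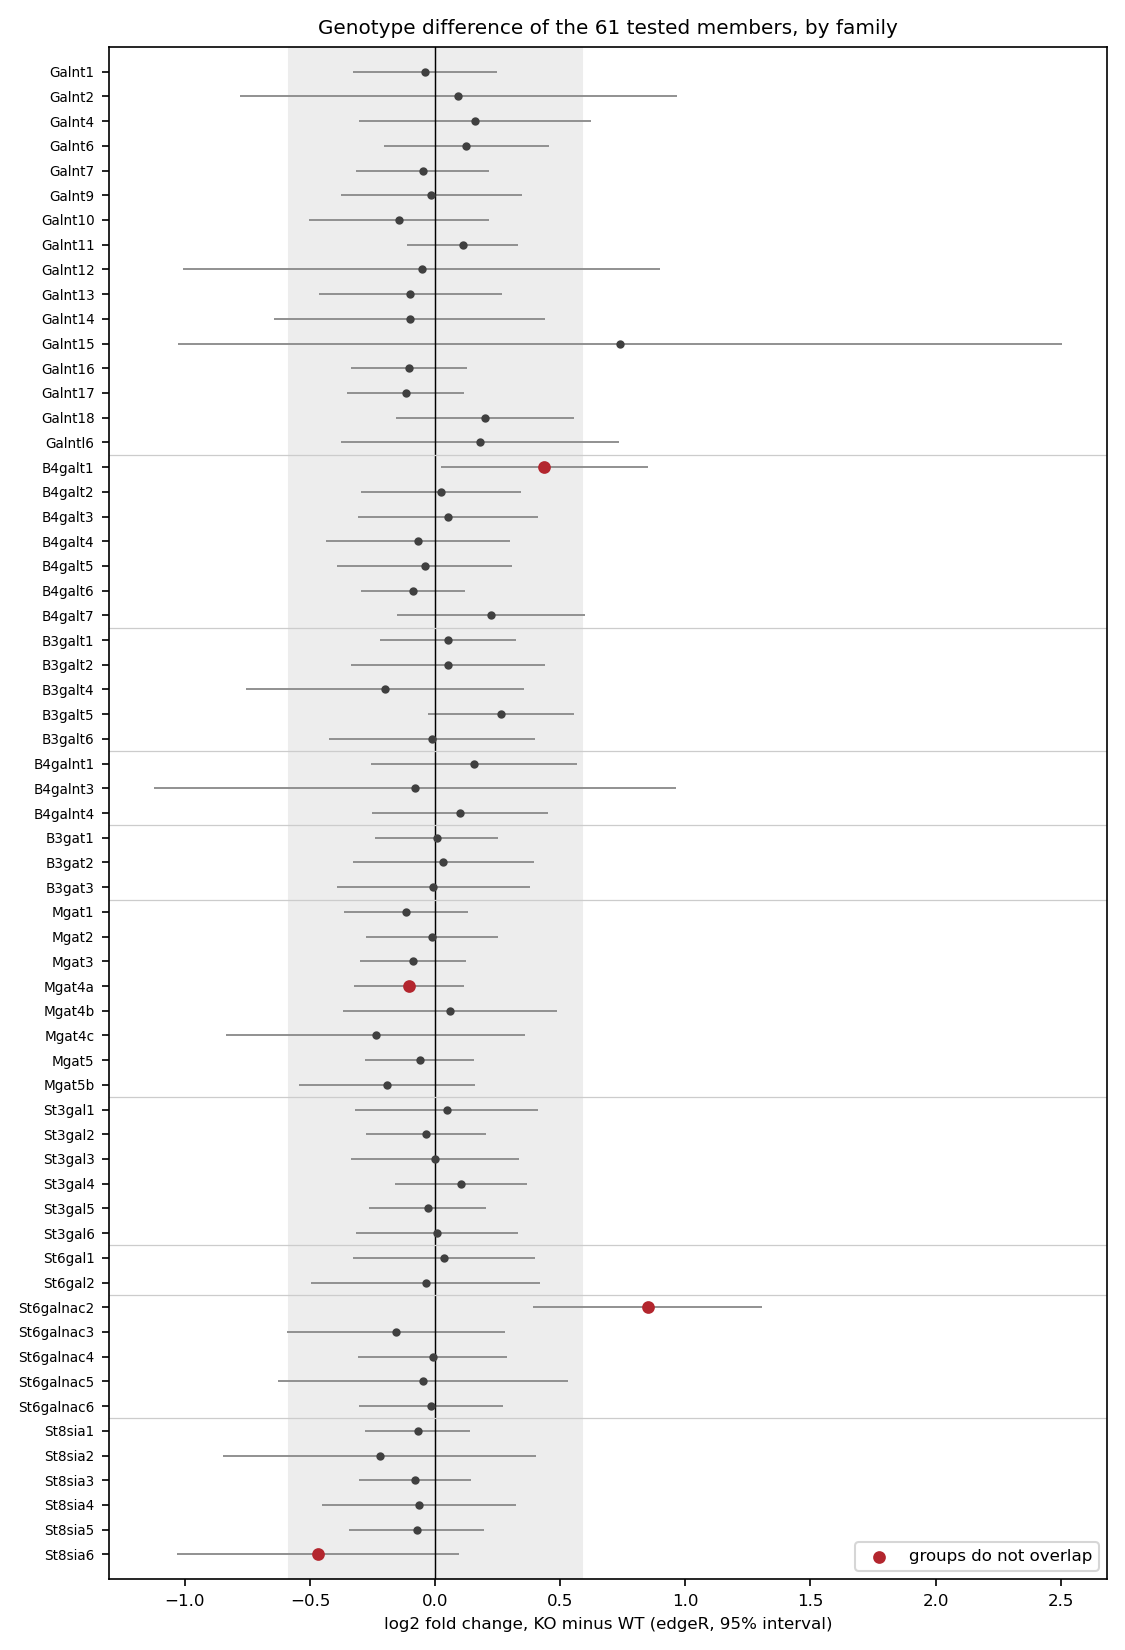
The log2 fold change of KO against WT (horizontal axis) is drawn for each of the 61 tested members, grouped by family, with the 95% interval of the edgeR fit as a bar; the grey band marks a 1.5-fold change in either direction. Most intervals lie inside the band and across 0, the 4 members whose groups do not overlap are red, and Galnt15 has the widest interval (-1.03 to 2.50).

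Levels of different genes were compared in FPKM, the deposited values scaled to gene length and library size. Of the 69 members 49 had a mean of at least 1 FPKM and 21 of at least 10, and the median was 5.11 FPKM. The highest was St8sia5, a sialyltransferase of complex gangliosides, at 63.4 ± 5.46 FPKM in WT and 59.6 ± 7.86 in KO (SD, n = 3 each here and below). Mgat3, which adds the bisecting N-acetylglucosamine of N-glycans, and B3gat3, which completes the proteoglycan linker, came next at 49.4 ± 1.49 and 47.3 ± 9.94 FPKM in WT, less than the spread of B3gat3 apart. St3gal5 (38.6 ± 2.04 FPKM in WT), B4galt6 (36.8 ± 1.76) and St3gal2 (31.9 ± 3.20) followed, of which the first 2 differed by less than their spread. Thus 4 of the 6 members highest in FPKM, all but Mgat3 and B3gat3, act in the synthesis of gangliosides. This order depends on the deposited gene length, which is 2097 bases for St8sia5 and 4665 for Mgat3. GENCODE M21 gives St8sia5 more exon bases than 2097, since the 387 bases it shares with Gm7276 are 7.12% of them. With that length its FPKM would be lower, and the order and the count of ganglioside members at the top were not recomputed. In CPM, which is not scaled to length, St8sia5 was at 139 in WT. Mgat3 (240 CPM in WT), B4galt6 (223), St3gal2 (168), Galnt13 (148), Mgat5 (146) and St8sia1 (143) were higher.

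**Figure D2:**
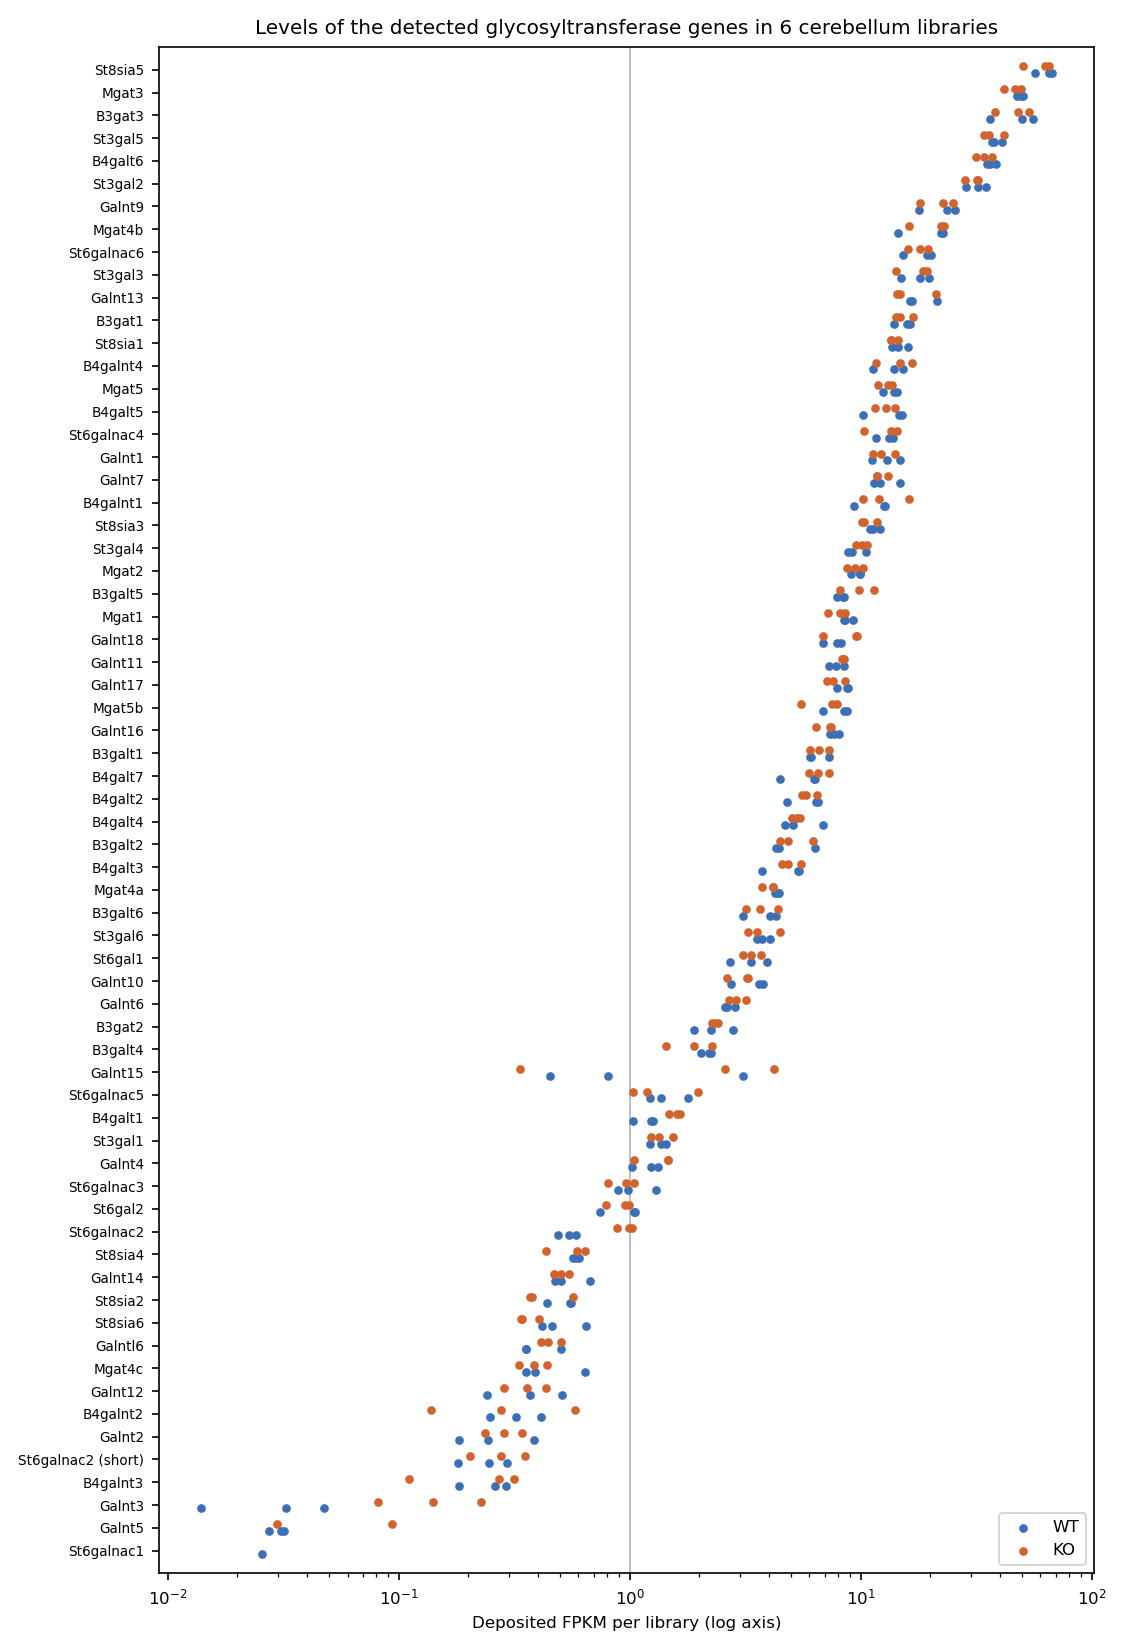
Deposited FPKM per library (horizontal log axis) is shown for the members with any count, ordered by mean level, with WT libraries in blue and KO libraries in orange; values of 0 cannot be drawn on this axis. St8sia5 is at the top, the vertical line marks 1 FPKM, and blue and orange points overlap in most rows.

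Ganglioside synthesis was represented from the making of lactosylceramide onward. Its 11 members here summed to 233 ± 13.7 FPKM in WT and 224 ± 14.7 in KO, and 10 of the 11 log2 fold changes were negative, between -0.20 and -0.02, with none passing, where 51.2% of all tested genes were negative. This count depended on single libraries: 5 of the 11 were negative without KO 4 and 6 without WT 3. B4galt6 and B4galt5 make lactosylceramide, the common precursor, and B4galt6 was the more abundant (36.8 and 13.4 FPKM in WT). St3gal5 makes GM3, the first ganglioside, and had 37.1, 40.9 and 37.7 FPKM in WT 1, 3 and 5 and 41.7, 34.4 and 36.1 FPKM in KO 2, 4 and 6. The groups overlapped, with the highest and the lowest value both in KO (log2 fold change -0.03, 95% interval -0.26 to 0.20).

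St8sia1, which makes GD3 and so opens the b-series, was at 14.7 ± 1.19 FPKM in WT and 13.9 ± 0.610 in KO (log2 fold change -0.07, SE 0.09). B4galnt1, the GM2 and GD2 synthase, was the 1 positive member, with 12.6, 12.8 and 9.32 FPKM in WT 1, 3 and 5 and 12, 10.2 and 16.1 FPKM in KO 2, 4 and 6 (log2 fold change 0.16, SE 0.18). KO 6 lay above all other libraries and the rest overlapped, and without KO 6 the log2 fold change was -0.04. B3galt4, which makes GM1, was at 2.16 ± 0.120 FPKM in WT and 1.86 ± 0.413 in KO, the lowest level along the main path. St3gal2, a sialyltransferase of GD1a and GT1b, was at 31.9 ± 3.20 and 30.8 ± 2.22 FPKM. St8sia5 had 67.3, 65.7 and 57.1 FPKM in WT 1, 3 and 5 and 63.1, 50.6 and 65.1 FPKM in KO 2, 4 and 6, so that WT 5 and KO 4 were the lowest libraries (log2 fold change -0.07, 95% interval -0.34 to 0.20).

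Of the sialyltransferases that act late on gangliosides, St6galnac6 (18.3 ± 2.65 FPKM in WT and 17.9 ± 1.73 in KO) exceeded St6galnac5 (1.46 ± 0.297 and 1.40 ± 0.50) and St6galnac3 (1.06 ± 0.218 and 0.939 ± 0.124). St6galnac6 and St6galnac4 are neighbours on chromosome 2 on the same strand, with 10 bases between their annotated ends (32587095 to 32599698 for St6galnac4 and 32599709 to 32620806 for St6galnac6, GRCm38.p6). Both were lowest in WT 5 and KO 4, with log2 fold changes of -0.02 (St6galnac6) and -0.01 (St6galnac4). With genes this close, and with no strand setting of the counting in the sources used here, reads near the junction may be shared.

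The start regions of B4galt1, Mgat4a and Galnt15 are printed as examples of a member higher in every KO library, a member lower in every KO library and the member that varied most between animals. The letters come from the RefSeq promoter table (GRCm38.p6). Each line gives the 120 bases before the outermost annotated start, 5′ to 3′ on the strand of the gene: the GENCODE start for B4galt1 (40854005; RefSeq 40853984) and Galnt15 (32028989; RefSeq 32029103), and the start shared by both for Mgat4a (37541016). Capitals mark GGGCGG (the GC box bound by Sp1) or its complement CCGCCC, and TTCNNNGAA, the core recognised by STAT factors.
B4galt1: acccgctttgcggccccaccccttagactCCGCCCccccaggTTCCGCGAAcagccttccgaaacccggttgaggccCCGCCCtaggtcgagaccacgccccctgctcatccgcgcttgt
Mgat4a: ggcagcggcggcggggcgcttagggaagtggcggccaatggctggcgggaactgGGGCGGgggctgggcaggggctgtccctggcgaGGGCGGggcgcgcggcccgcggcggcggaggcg
Galnt15: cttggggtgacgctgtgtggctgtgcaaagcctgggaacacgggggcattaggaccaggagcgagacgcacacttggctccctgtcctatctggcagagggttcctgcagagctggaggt
They lie at chr4:40854006-40854125 (minus strand), chr1:37541017-37541136 (minus strand) and chr14:32028869-32028988 (plus strand). In these 120 bases B4galt1, Mgat4a and Galnt15 have 12, 17 and 4 CpG dinucleotides, and Galnt15 holds neither motif. No count over 120 bases was made for other genes, and a link between these letters and the levels was not tested.

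RefSeq windows of 300 bases (250 before and 50 after a start) matched 51 members, with 68 windows. The members' windows had a median of 19.5 CpG dinucleotides, against 7 over all 32851 windows of the table, and the GC box stood in 34 of them, against 35.7% of all windows. On either strand, TTCNNNGAA was found in 5.88% of the members' windows (B3galt5, B4galt1, Galntl6 and Mgat2) and in 8.30% of all windows. The metal response element core, TGCACNC or TGCGCNC, was found in 32.4% and in 25.7%. The interferon-stimulated response element was found in 1.47% (Galntl5) and in 3.44%, and ACGTGGC, the Golgi apparatus stress response element, in 0 of the 68 windows and in 2.58% of all. The windows were counted separately for each motif, although a stretch can hold more than 1 of them, and a match describes the letters and is no evidence of binding.

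St6galnac2 differed most between the genotypes among the tested members, although it did not pass over all genes. It adds sialic acid to the N-acetylgalactosamine of O-glycans (ENSMUSG00000057286, chromosome 11, 116675303 to 116694868). Its level was 3.56, 3.32 and 2.93 CPM in WT 1, 3 and 5 and 6.23, 6.07 and 5.39 CPM in KO 2, 4 and 6. The genotypes did not overlap, all KO libraries being higher, and the spread within each genotype was small. This gave a log2 fold change of 0.85 with an SE of 0.20 and a 95% interval of 0.39 to 1.31 (unadjusted p = 0.00205 and adjusted p = 0.717 by edgeR), and the authors' deposited table gives 0.85 with an adjusted p = 0.9999. Over 16 alternatives the log2 fold change was 0.76 to 0.91, the edgeR, DESeq2 or limma-voom unadjusted p was 0.00168 to 0.0103, and the adjusted p was 0.241 to 1.0. With WT 5 and KO 4 left out it was 0.76.

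The low level of St6galnac2 (0.541 ± 0.0488 FPKM in WT and 0.966 ± 0.0721 in KO) and its neighbours bear on this count. It shares 383 exon bases, 6.62% of its own, with the second gene listed as St6galnac2 (ENSMUSG00000110170), which lies within it and had 0.319 to 0.629 CPM with overlapping groups. On the opposite strand 497 exon bases (8.58%) overlap 1810032O08Rik (2.93 CPM), so the count is uncertain to that extent. The summed microglia and interferon markers given above were also higher in every KO library, those of the choroid plexus in KO 2 and KO 4, and their part in the St6galnac2 difference was not tested. Of the rest of the family not yet described, St6galnac1 had 1 count in all libraries together, and St6galnac4 was at 12.9 ± 1.11 FPKM in WT and 12.7 ± 2.09 in KO.

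**Figure D3:**
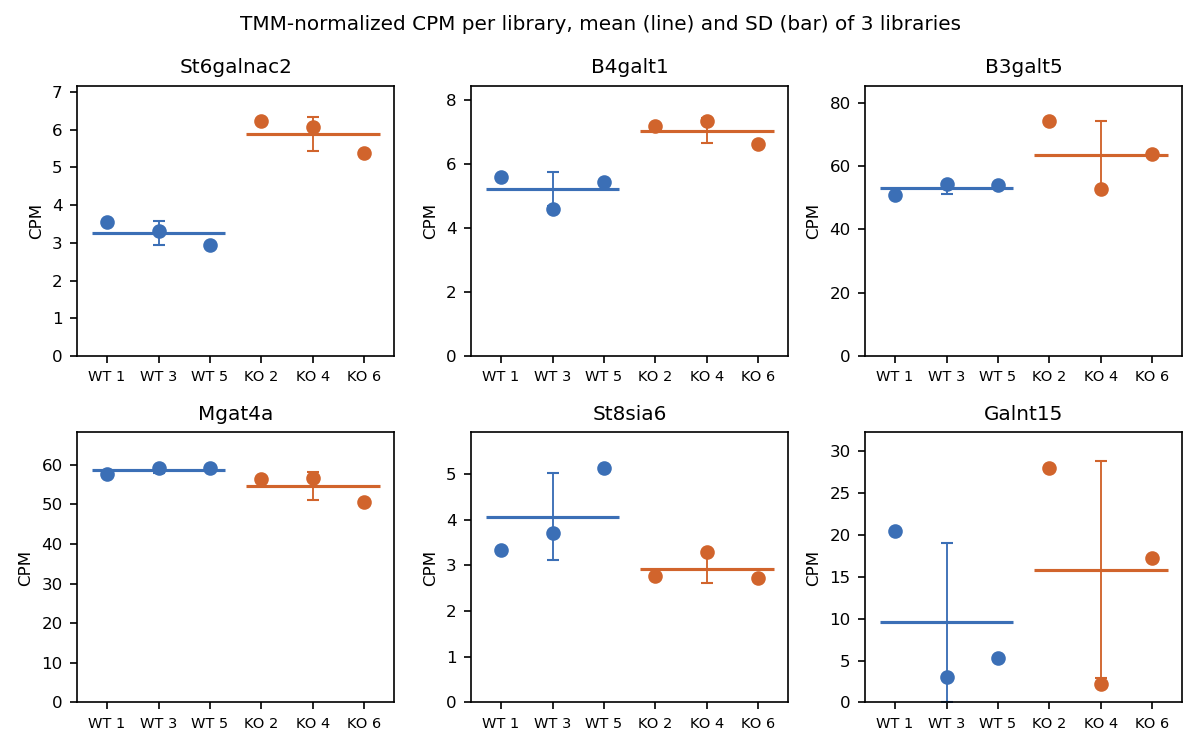
TMM-normalized CPM (vertical axes, from 0) of 6 members in each library, with WT in blue and KO in orange; lines are means and bars the SD of 3 libraries. St6galnac2 and B4galt1 have all KO libraries above all WT libraries, Mgat4a and St8sia6 have every KO library below, B3galt5 overlaps in KO 4, and Galnt15 is high in WT 1, KO 2 and KO 6.

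The B4galt enzymes add galactose, most of them to the N-acetylglucosamine of N-glycans. B4galt1, the founding member and the galactosyltransferase of lactose synthase in the mammary gland, was the least abundant of its family here (1.18 ± 0.121 FPKM in WT and 1.58 ± 0.0842 in KO; chromosome 4, 40804602 to 40854005). It had 5.59, 4.59 and 5.43 CPM in WT 1, 3 and 5 and 7.17, 7.33 and 6.61 CPM in KO 2, 4 and 6. The groups did not overlap (log2 fold change 0.44, SE 0.18, 95% interval 0.02 to 0.85; edgeR unadjusted p = 0.04005, adjusted p = 1.0). Leaving out single libraries gave 0.36 (without WT 3) to 0.49 (without WT 1), with an unadjusted p under 0.05 in 1 of the 6 such fits.

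B4galt2, B4galt3 and B4galt4 had log2 fold changes of 0.02, 0.05 and -0.07. B4galt2 shares 28.2% of its exon bases with Ccdc24 on the same strand, and its count is uncertain to that extent. B4galt7, which adds the first galactose of the proteoglycan linker, was at 5.71 ± 1.07 FPKM in WT and 6.61 ± 0.663 in KO (log2 fold change 0.22, SE 0.17). In CPM it was low in WT 5 alone (13.4, against 18.2 to 22.3 in the other libraries), and without WT 5 the groups still overlapped, KO 4 lying below WT 1 and WT 3, with a log2 fold change of 0.07. The next linker enzymes, B3galt6 and B3gat3, were at -0.01 and -0.01 on the log2 scale, and the 3 linker genes together summed to 56.9 ± 11.5 FPKM in WT and 57.1 ± 8.79 in KO.

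Of the B3galt family, B3galt5, which builds type 1 chains, was the most abundant (8.25 ± 0.325 FPKM in WT and 9.79 ± 1.65 in KO; chromosome 16, 96235801 to 96319859). Its level was 50.9, 54.2 and 54.0 CPM in WT 1, 3 and 5 and 74.2, 52.6 and 63.9 CPM in KO 2, 4 and 6. KO 2 and KO 6 lay above all WT libraries and KO 4 among them (log2 fold change 0.26, SE 0.13, 95% interval -0.03 to 0.55). The value depended on single libraries, at 0.14 without KO 2 and 0.39 without KO 4, and it was 0.40 with WT 5 and KO 4 left out (edgeR unadjusted p = 0.00310, adjusted p = 0.433). B3galt1 and B3galt2 (6.47 ± 0.719 and 5.04 ± 1.14 FPKM in WT) both had a log2 fold change of 0.05, with WT 5 and KO 4 the highest libraries in each.

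The HNK-1 epitope, a sulphated glucuronic acid on neural adhesion molecules, is started by B3gat1 and B3gat2. B3gat1 was at 15.4 ± 1.27 FPKM in WT and 15.3 ± 1.41 in KO, and B3gat2 at 2.31 ± 0.451 and 2.34 ± 0.0723. Their log2 fold changes of 0.01 and 0.03 were among the smallest of the members, with 95% intervals of -0.24 to 0.25 and -0.33 to 0.39. B3gat2 shares 33.5% of its exon bases with Smap1 on the opposite strand, so its count is uncertain to that extent. The LacdiNAc enzymes B4galnt4 and B4galnt3 were far apart in level, at 13.5 ± 2.00 and 0.245 ± 0.0557 FPKM in WT.

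The Mgat enzymes set the number of branches of N-glycans. Of 8 tested members 7 were negative (median log2 fold change -0.10), against 51.2% of all tested genes, and none passed. Without WT 3, and likewise without WT 5, 6 of the 8 were negative, and without KO 6 all 8. Mgat4d and Mgat4e had no count in any library. Mgat1, which opens the pathway to hybrid and complex N-glycans, was at 8.74 ± 0.449 FPKM in WT and 7.99 ± 0.686 in KO (log2 fold change -0.12, SE 0.11). Mgat3 had 248, 242 and 231 CPM in WT 1, 3 and 5 and 231, 206 and 242 CPM in KO 2, 4 and 6 (log2 fold change -0.09, SE 0.09, 95% interval -0.30 to 0.12). The groups overlapped, and the interval lay within a 1.5-fold change in either direction.

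Mgat4a, which adds a branch on the arm opposite to that of Mgat5, had 57.8, 59.3 and 59.1 CPM in WT 1, 3 and 5 and 56.6, 56.7 and 50.6 CPM in KO 2, 4 and 6. All KO libraries lay below all WT libraries, although 2 of them by little (log2 fold change -0.10, SE 0.10, 95% interval -0.33 to 0.12; edgeR adjusted p = 1.0). Its paralogue Mgat4b was more abundant (19.8 ± 4.67 FPKM in WT and 20.5 ± 3.69 in KO) and low in WT 5 and KO 4 (40.8 and 46.6 CPM against 63.4 to 65.9). Mgat5, which makes the branch that carries polylactosamine, was at -0.06 (SE 0.10), and Mgat5b, which acts on O-mannose glycans of brain, was at -0.19 (SE 0.16; 8.04 ± 0.997 FPKM in WT and 6.96 ± 1.25 in KO). Without KO 4 the value of Mgat5b was -0.05, and without WT 5 it was -0.29; that of Mgat3 was -0.02 without KO 4, and that of Mgat4a -0.05 without KO 6.

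All 6 St8sia genes, whose products add sialic acid to sialic acid, were negative, with log2 fold changes of -0.47 to -0.06 (median -0.08), and none passed. Of all tested genes 51.2% were negative. Without KO 4, and likewise without KO 6, 5 of the 6 were negative, and all 6 without any other single library. St8sia1 and St8sia5 are also among the ganglioside members counted above. The polysialic acid enzymes of NCAM, St8sia2 and St8sia4, were low in FPKM in the adult cerebellum (0.515 ± 0.0674 and 0.586 ± 0.0161 FPKM in WT), whereas St8sia3 was at 11.5 ± 0.596 FPKM. The deposited length of St8sia4, 20091 bases, lowers its FPKM, and in CPM it was at 12.3 in WT against 2.89 for St8sia2 and 79.85 for St8sia3. St8sia6 had 3.34, 3.70 and 5.13 CPM in WT 1, 3 and 5 and 2.77, 3.28 and 2.73 CPM in KO 2, 4 and 6. The groups were separated by the gap between KO 4 and WT 1, which is smaller than the range within WT (log2 fold change -0.47, SE 0.25, 95% interval -1.03 to 0.09; edgeR adjusted p = 1.0), and over 16 alternatives the log2 fold change was -0.59 to -0.27. Among the caps of N-glycans, St3gal3, St3gal4 and St3gal6 were at -0.001, 0.10 and 0.01 on the log2 scale, and St6gal1 was at 3.33 ± 0.604 FPKM in WT and 3.38 ± 0.304 in KO. Genes on the opposite strand share 26% of the exon bases of St3gal6 (Dcbld2), 20.7% of B4galnt1 (Slc26a10), 14.5% of B4galt3 (Ppox) and 14.1% of St3gal4 (4930581F22Rik), so these counts are uncertain to that extent.

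The Galnt enzymes start mucin-type O-glycans on serine and threonine and were the largest family, with 19 members, 16 of them tested. Their summed level was 109 ± 3.36 FPKM in WT and 107 ± 2.05 in KO, and 7 of the 16 were positive. Galnt9, Galnt13 and Galnt1 led in level, at 22.4 ± 4.03, 18.2 ± 2.88 and 13.0 ± 1.82 FPKM in WT and 22.0 ± 3.58, 16.8 ± 3.85 and 12.5 ± 1.39 in KO. Galnt9 was lowest and Galnt13 highest in WT 5 and KO 4, so that members of 1 family differed in opposite directions in these libraries. Galnt18 (0.20, SE 0.16), Galnt17 (-0.12, SE 0.10) and Galnt11 (0.11, SE 0.10) were among the 10 members with the smallest p and had overlapping groups. With single libraries left out they ranged from 0.12 (without KO 2) to 0.35 (without KO 4), from -0.19 (without KO 6) to -0.06 (without KO 4) and from 0.06 (without WT 3) to 0.16 (without WT 5). Galnt2 (0.270 ± 0.104 FPKM in WT) shares 90.0% of its exon bases with Gm20388 on the same strand, a gene listed at 0, so its low level is uncertain.

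Galnt15 and Galnt3 are named after their values were seen. Galnt15 (chromosome 14, 32028989 to 32062197; Slc39a14 lies on the same chromosome at 70303469 to 70351425) varied more between animals than any other member, with an SD of 1.45 on the log2 scale over the 6 libraries against a median of 0.20. It had 20.5, 3.00 and 5.28 CPM in WT 1, 3 and 5 and 28.1, 2.23 and 17.3 CPM in KO 2, 4 and 6. Both genotypes thus held high and low libraries, with a 12.6-fold range over all 6, and the genotype difference was within the spread (log2 fold change 0.74, SE 0.79). It ranged from 0.03 without KO 2 to 1.95 without WT 1. Galnt15 was the 1 member called when the low-count filter was removed (edgeR adjusted p = 0.0302, its groups overlapping), a setting that called 0.443% of all genes. Galnt3, not tested because of its low counts, was counted 3, 1 and 2 times (WT 1, 3 and 5) and 6, 15 and 9 times (KO 2, 4 and 6). The authors' deposited table gives Galnt3 a log2 fold change of 2.29 with an adjusted p = 0.9999.

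WT 5 and KO 4, 1 library of each genotype, also stood apart in the members. Among the 61 tested members, WT 5 and KO 4 were the lowest 2 libraries in 19 (31.1%, against 21% of all tested genes) and the highest 2 in 11 (18.0%, against 20.0%). The 19 low members included B3gat3, Mgat4b, Galnt9, B4galt5 and St8sia5, and the 11 high members included Galnt13, B3galt2, B4galt6, St8sia1 and St6galnac5. The low members had a median GC content of 57.0% in the longest GENCODE transcript and a median gene span of 24.2 kb, whereas the high members had 43.9% and 129 kb. Over all protein-coding genes the same positions gave 55.7% and 15.9 kb (3394 genes) and 43.0% and 41.2 kb (2799 genes). With WT 5 and KO 4 left out 0 members were called. In that comparison of 2 libraries against 2 the groups did not overlap in 26 members (42.6%), against 31.2% of all genes tested there.

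**Figure D4:**
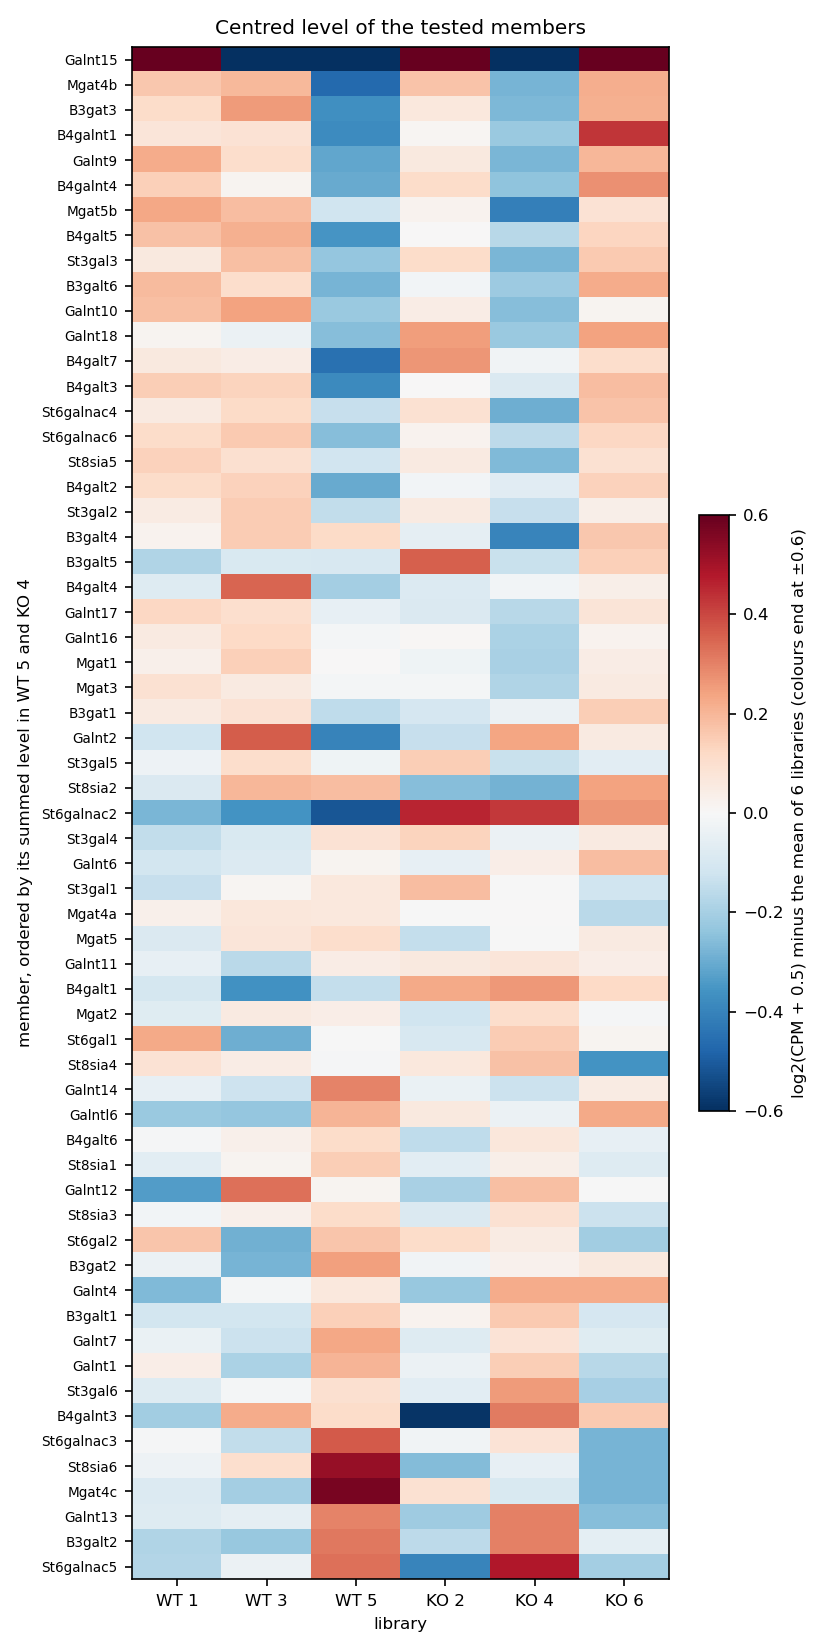
Each row is a tested member and each column a library; colour gives log2(CPM + 0.5) minus the mean of the 6 libraries, red above and blue below. Members are ordered by their summed level in WT 5 and KO 4, so most upper rows are blue and most lower rows red in both columns; Galnt15 runs past the end of the colour scale, and St6galnac2 is a row that is blue in all WT and red in all KO libraries.

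Members were also divided by the metal use of their family. The 40 tested members of the kinds that use manganese had a median log2 fold change of -0.01 (range -0.24 to 0.74, 19 positive), and the 21 sialyltransferases and Mgat5 enzymes had -0.04 (range -0.47 to 0.85, 5 positive). The difference between these medians was not tested, since the members are not replicates.

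The other genes of the pathway gave no call either. Of 35 tested Golgi glycosyltransferases outside these families 16 were positive (median log2 fold change -0.01) and 0 passed, with Gcnt1, which branches core O-glycans, at 26.2 ± 4.88 CPM in WT and 18.9 ± 1.17 in KO (log2 fold change -0.47, SE 0.16; n = 3 each, edgeR adjusted p = 1.0). Ggta1, the galactosyltransferase of the alpha-Gal epitope, was at -0.67 (SE 0.36). Of 23 glycosaminoglycan synthesis genes 10 were positive and 0 passed (median -0.04), with Ndst4 at -0.57 and Ext1 at -0.27. Nucleotide sugar synthesis (25 tested, 9 positive, median -0.04; Mpi 0.16) and nucleotide sugar transporters (14 tested, 6 positive, median -0.01; Slc35d1 -0.22 and Slc35b2 0.20) had 0 calls.

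Golgi ion homeostasis includes Tmem165 and Atp2c1, which carry manganese into the Golgi lumen. Tmem165 was at 31.2 ± 2.42 CPM in WT and 30.3 ± 2.15 in KO (log2 fold change -0.05, SE 0.12, 95% interval -0.31 to 0.22). Atp2c1 was at 176 ± 28.4 and 177 ± 31.2 CPM (0.01, SE 0.15, 95% interval -0.33 to 0.34). Neither passed, and of 14 tested genes of this list 8 were positive and 0 passed (median 0.01). Gpr89 was at -0.21 (SE 0.14) and Slc39a7 at -0.51 (SE 0.35, 95% interval -1.29 to 0.26). The level of Slc39a7 was low, at 3.63, 3.38 and 3.30 CPM in WT 1, 3 and 5 and 3.27, 1.19 and 2.73 CPM in KO 2, 4 and 6. Golgi trafficking complexes (24 tested, 10 positive, median -0.02; Cux1 -0.10 and Cog2 0.11), N-glycan trimming (14 tested, 7 positive, median -0.004; Edem2 -0.13 and Man1b1 -0.10) and the synthesis and transfer of the lipid-linked N-glycan precursor (30 tested, 14 positive, median -0.005; Dolpp1 0.21) had 0 calls.

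The enzymes that remove sugars were mostly positive, 13 of 17 with a median of 0.08, where 48.8% of all tested genes were positive, and 0 passed. The sialidase Neu3, which acts on gangliosides, was at a log2 fold change of -0.35 (SE 0.20). Of 12 tested carriers and readers of sialic acid and galactose 7 were positive and 0 passed. Siglec1, a sialic acid receptor of macrophages, was counted 3, 16 and 3 times (WT 1, 3 and 5) and 25, 17 and 26 times (KO 2, 4 and 6) (log2 fold change 1.61, SE 0.57, edgeR adjusted p = 1.0), beside the higher summed microglia markers in KO.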

How the data were processed

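Cerebellar RNA was extracted with TRIZOL and sequenced from 6 mice, per the labels' protocols. The submitters' processing notes list HISAT2, DESeq2 and the build GRCm38.p6; counting program and strand setting: not given in the sources used here. Raw whole-number counts were deposited for each gene and library. The deposited FPKM columns are scaled by the authors to gene length and library size. The authors' group means are a signal of normalized counts, and the log2 fold changes and p-values of the authors' comparison were deposited beside them.

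Groups and animal numbers came from the sample titles, and the labels do not say more about how the animals were paired or raised. The test was that of edgeR 4.0.16 under R 4.3.3 (quasi-likelihood F test, TMM factors 0.990 to 1.01, filterByExpr by group, Benjamini-Hochberg adjustment over 17142 genes, threshold 0.05). Standard errors were derived from the fold change and its F statistic. DESeq2 1.42.0 and limma 3.58.1 (voom) were alternatives, with other normalizations and filters, robust shrinkage, protein-coding genes only and libraries left out. On simulated counts for KO against WT (17142 genes) edgeR recovered 40% of the 50 genes given a 1.5-fold change. Of the 50 given a 2-fold change it recovered 52%. The simulation also held genes given a 4-fold or 8-fold change and made 149 calls in all, against 8 in the real fit. With more calls the adjusted threshold is easier to pass, so these shares do not give the sensitivity of the real test. There St6galnac2, at a log2 fold change of 0.85, had an edgeR adjusted p = 0.717. A single count was worth 0.0628 to 0.0731 CPM. Chi-square values between libraries (5.56 to 24.2 per degree of freedom) showed no library deposited in duplicate.

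The members and gene lists were chosen with earlier results of these data known. Named members were the up to 3 most abundant of each family, those whose groups did not overlap at 1 CPM or more, the 10 with the smallest p and those with no count (Galntl5, Mgat4d and Mgat4e). Of each pathway list the 2 genes with the smallest p at 1 CPM or more were named. Some genes that this rule names are not reported here. Letters of the start regions came from RefSeq windows, and start sites were compared with GENCODE M21, which also gave exons and GC content, both on GRCm38. Gene spans are the deposited ones and equal those of GENCODE M21 for most members. Summaries used pandas 2.3.3 and figures matplotlib 3.10.9 (Python 3.11.15).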

Additional observations from a re-analysis of the deposited data

How the results depend on the processing

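No paired analysis was made because the labels do not say whether WT and KO animals were paired. No member was called in 15 of 16 alternatives, and Galnt15 was the 1 called without the low-count filter (log2 fold change 0.75). The number of all genes called, 8 in the reported fit, was 142 without the low-count filter, 38 with DESeq2, 40 with WT 5 and KO 4 left out, 34 with a term for them, and 0 to 28 with single libraries left out (0 without WT 1 or WT 3, 28 without WT 5, 17 without KO 4, 2 without KO 2 and 3 without KO 6). Members whose groups did not overlap numbered 5 to 17 with single libraries left out (8.06% to 27.9% of members, against 13.6% to 18.6% of all genes; 17 without WT 5 and 12 without KO 4) and 26 without WT 5 and KO 4 (42.6% against 31.2%). The Galnt median of -0.03 was 0.0420 at a minimum total of 10 counts, 0.0433 without the low-count filter and 0.0416 with DESeq2, settings that test more weakly expressed members, and -0.0378 to 0.0604 with single libraries left out. The St6galnac median was -0.0559 to 0.0587 with single libraries left out. Among 576 values of named members 59 had the opposite sign, in 20 members whose reported log2 fold change was at most 0.16 in size; none of these was called, and the cause was not tested. With library totals alone the values were 0.0024 (Galnt9), 0.0105 (B3gat3), 0.0162 (St3gal3), 0.0073 (St6galnac4) and 0.00053 (St6galnac6). St3gal3 was at 0.0017 with a minimum total of 10 counts and 0.0031 without the low-count filter, and B3gat3 at 0.00084 with limma-voom and 0.0010 with the term for WT 5 and KO 4. Without WT 5 and KO 4 the values were -0.0408 (B3gat1), 0.0165 (St3gal3), 0.0098 (St3gal5), -0.0232 (St6gal1) and 0.0488 (St6galnac4). With single libraries left out the ranges were B3galt1 (-0.013 to 0.143), B3galt2 (-0.0941 to 0.25), B3gat1 (-0.0692 to 0.0576), B3gat2 (-0.0866 to 0.186), B3gat3 (-0.167 to 0.131), B4galnt1 (-0.044 to 0.297), B4galnt4 (-0.0183 to 0.235), B4galt5 (-0.200 to 0.063), Galnt1 (-0.133 to 0.0607), Galnt13 (-0.298 to 0.036), Galnt9 (-0.154 to 0.111), Mgat4b (-0.124 to 0.205), St3gal2 (-0.113 to 0.0386), St3gal3 (-0.108 to 0.127), St3gal5 (-0.117 to 0.0313), St6gal1 (-0.0877 to 0.175), St6galnac4 (-0.102 to 0.121), St6galnac5 (-0.371 to 0.131), St6galnac6 (-0.133 to 0.0661) and St8sia5 (-0.145 to 0.0348). With 3 libraries per genotype and low counts, differences in weakly expressed members are poorly bounded, and transcript levels say nothing of enzyme activity.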
